A study of Rattus norvegicus with 30 samples.

Results

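The genes described here are the very long genes expressed in the rat brain tissue sampled: autosomal genes whose outermost exon ends lie more than 600 kb apart and that had at least 10 counts in at least 5 of the 30 libraries. Of the 32552 genes in the deposited tables, 65 met this rule, and all 65 were also among the 15797 genes that passed edgeR's filter on low counts. A further autosomal gene over 600 kb did not reach the count minimum, and 3 genes over 600 kb lie on chromosome X and were left out. The 3 longest spans left outside were 594, 598 and 598 kb, and the 3 shortest inside were 601, 602 and 604 kb.

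RNA was sequenced from 30 adult male wild type Sprague Dawley rats, with 1 library per rat. CT rats (n = 7) took saline and received no foot-shocks. SR (n = 7, shock-resistant) and SS (n = 6, shock-sensitive) rats self-administered methamphetamine (METH) for 21 days, and their presses were then partly punished by foot-shocks for 8 days: SR rats went on pressing and SS rats pressed less. The yoked controls, YSR (n = 5) and YSS (n = 5), self-administered saline and were shocked whenever the SR or SS rat they were yoked to was shocked; the labels do not state the pairs, although 7 METH rats have a yoked rat of the matching group at the next library code. Group membership of the METH rats was thus set by behavior and not assigned, and the METH rats differ from CT rats in both drug and shock. The tissue is whole hippocampus according to the study's methods and to the protocol in the labels, while the tissue field of the labels names the dorsal striatum. The sources also disagree on whether the tissue was taken at once or 2 h after the last session. The library titles carry the code XII or XIII, taken here as the cohort. Cohort XII supplied 1 of 7 CT, 4 of 7 SR, 2 of 6 SS, 3 of 5 YSR and 1 of 5 YSS libraries. In bulk tissue, fewer cells of a type and less RNA per cell cannot be told apart.

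Very long genes are a small class in mammals, and as a class they are known to be expressed mainly in neurons. Many encode cell adhesion molecules, synaptic scaffolds, receptors and ion channels, and their introns make up nearly all of the transcribed length, so that RNA polymerase needs hours to complete a transcript. Genes that RefSeq annotates at this length in the rat include Ptprd, Lsamp, Cntn4 and Cdh13, which encode adhesion molecules of the neuronal surface, and Rbfox1, a neuronal splicing factor. The deposited tables hold Ensembl identifiers without symbols, and 0 of these could be paired with a symbol here, so none of these names is attached to a row. Members are therefore given by chromosome and span, and the description of the class as mostly synaptic and adhesion genes, the functional lists and the cell type markers were not checked. Coordinates are those of the deposited tables, whose genome build is not given in the sources used here.

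The 65 genes lie on 18 chromosomes, 39 on the plus strand and 26 on the minus strand. Their median span was 748 kb, against 19.98 kb over all genes tested. Their exons were far less extreme, with a median exon length of 4085 bases in 23 exon blocks, against 2306 bases and 9 blocks over all genes tested. Exons thus made up a median of 0.484% of the span of a member (range 0.0841 to 2.75%), against 11.9% over all genes tested. Other annotated genes lay wholly inside 46 of the 65 members.

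The span rested on a single stretch without exons in 7 members, where this stretch was longer than 50% of the span. The longest member by far, on chromosome 15 from 87506959 to 93868301 (6361 kb), holds a stretch of 6138 kb without exons and 34 other genes. The 1678-kb member of chromosome 1 (111849998 to 113527735) has such a stretch of 1363 kb, and another member, of 653 kb (112158519 to 112811936), lies within its span. In 5 members, part of the exon length overlaps exons of other genes. This share was 27.1% in the 1697-kb member of chromosome 4 (75325651 to 77023138) and 11.5% in the 1305-kb member of chromosome 6 (13886740 to 15191660). Depending on how reads of shared exons were assigned, such reads may be added to their counts or missing from them.

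Levels are given as CPM (read counts scaled to library size with TMM factors, which correct for depth and composition). The mean level of a member over all libraries had a median of 30.7 CPM, against 20.2 CPM over all genes tested, and ranged from 0.435 to 314 CPM. Together the 65 genes took between 3422 CPM (SR, XII-R05) and 4744 CPM (SS, XIII-L05) of a library. In 63 of them every library had at least 10 counts, and the lowest count of any member was 3. The highest level was that of the 6361-kb gene, with 322 ± 15.0 CPM (SD, n = 7) in CT, 308 ± 8.93 (n = 7) in SR, 305 ± 22.7 (n = 6) in SS, 314 ± 10.9 (n = 5) in YSR and 319 ± 14.3 (n = 5) in YSS rats. It was also the steadiest member, with an SD of 0.071 log2 units within groups. Per kilobase of exon, a scale on which genes can be compared, this gene had 20.8 CPM. The highest value on that scale was 62.7 CPM per kb, in the 886-kb member of chromosome 12 (28381982 to 29268073).

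Next in level were 2 members of chromosome 6. The 748-kb gene (144384773 to 145133042) had 283 ± 14.5 CPM (SD, n = 7) in CT and 269 ± 30.4 (n = 7) in SR rats, and the 761-kb gene (57516713 to 58277279) had 259 ± 14.1 and 243 ± 22.3 CPM. Next came the 1305-kb gene of chromosome 6, with 249 ± 19.8 CPM in CT and 224 ± 36.3 in SR rats, and the 604-kb gene of chromosome 4 (16454904 to 17058921), with 244 ± 34.9 and 216 ± 27.3 CPM. In SR vs. CT the estimates of these 5 members were between -0.18 and -0.061 on the log2 scale, none with an adjusted p under 0.05 by edgeR's quasi-likelihood test. The longest members after the 6361-kb gene were less abundant. The 1934-kb gene of chromosome 6 (112133204 to 114067564) had 136 ± 9.88 CPM in CT and 131 ± 16.7 in SR rats, and the 1678-kb gene of chromosome 1 had 56.1 ± 4.15 and 53.2 ± 8.17 CPM.

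The first question was whether the class as a whole differed between rats. For each library, the deviation of log2 CPM from the gene's mean over all 30 libraries was averaged over the 65 members. This score was 0.063 ± 0.049 (SD, n = 7) in CT, -0.056 ± 0.14 (n = 7) in SR, 0.026 ± 0.12 (n = 6) in SS, -0.029 ± 0.046 (n = 5) in YSR and -0.012 ± 0.081 (n = 5) in YSS rats. The CT rats were the most uniform of the larger groups, ranging from 0.00020 through a median of 0.045 to 0.15. SR rats ranged from -0.27 through -0.079 to 0.11, and SS rats from -0.11 through 0.015 to 0.21. The YSR values were -0.077, -0.075, -0.010, -0.0073 and 0.026, and the YSS values were -0.11, -0.055, -0.019, 0.018 and 0.11. All groups overlapped. The SD within groups, pooled, was 0.098, so that the difference of SR from CT was about as large as the spread between rats.

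**Figure D1:**
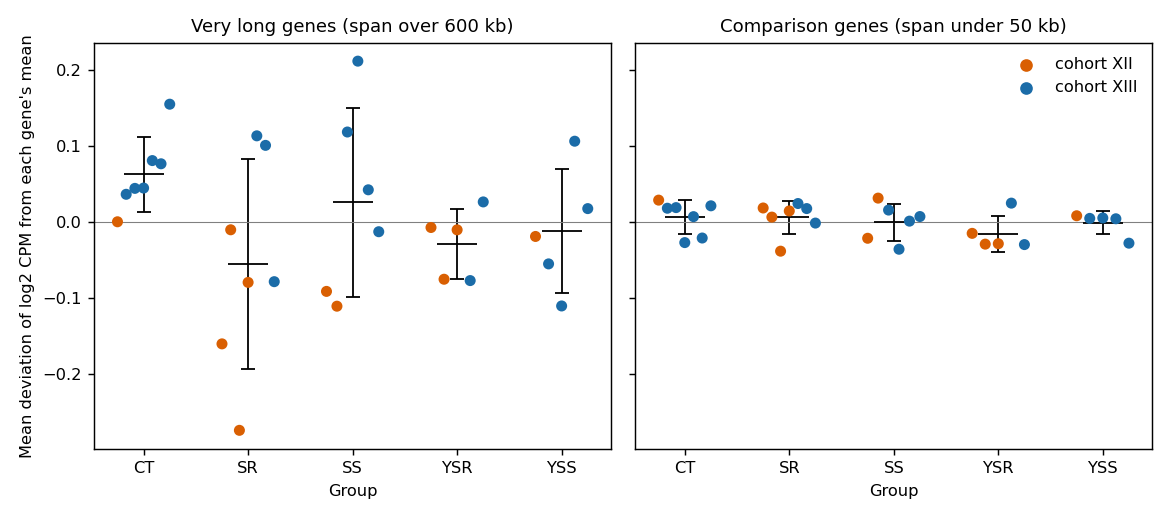
Mean deviation of log2 CPM from each gene's mean over 30 libraries (y axis, log2 units), by group (x axis), for the 65 very long genes (left) and their comparison genes (right); points are libraries coloured by cohort, and the bar and whiskers show the group mean ± SD. Very long genes spread from -0.27 to 0.21, and comparison genes, of which many were averaged per member, from -0.039 to 0.031.

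For comparison, shorter genes of like level were scored in the same way. As comparison genes, autosomal genes with a span under 50 kb were taken whose mean log2 CPM and log2 exon length were both within 0.5 of a member. At least 1 was found for 64 of the 65 members (a median of 341 per member), and 7203 different genes served in all. Their score, averaged by member, stayed between -0.039 and 0.031 in all 30 libraries, a range that is narrowed by the many genes averaged. With the nearest comparison gene of each member alone (62 genes), the score lay between -0.082 and 0.053, with an SD over libraries of 0.039 against 0.10 for the very long genes. Single very long genes were also more variable within groups, with a median SD of 0.17 log2 units against 0.12 for comparison genes and 0.15 for all genes tested.

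The levels of the very long genes tended to rise and fall together over the libraries. Over the 30 libraries, after the group mean was subtracted, the 2080 pairs of members had a median correlation of 0.27, and 78.7% of the pairs were positive. In the 33 members of at least 30 CPM the median was 0.40, with 93.4% positive. For the nearest comparison gene of each member (62 genes, 1891 pairs) the median was 0.0092, with 51.5% positive. All pairs share the same libraries, and genes are not independent replicates, so these values describe the libraries and carry no test. The cohort was not subtracted. The score was -0.076 ± 0.084 (SD, n = 11) in cohort XII and 0.044 ± 0.084 (n = 19) in cohort XIII. A cohort difference shared by members can raise these correlations, and its part in them was not tested.

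In the SR rat XII-R05, 56 of the 65 members were below their own mean, and in the SR rat XII-L05 53 were. In the SS rat XIII-L05 only 8 were below it. The score of the comparison genes in these libraries was -0.039, 0.018 and -0.036. Of the 6 libraries with the lowest scores 5 were of cohort XII and 3 were SR, and all 6 with the highest scores were of cohort XIII. Within the SR group, 51 of the 65 members had a lower mean in cohort XII (4 rats) than in cohort XIII (3 rats). Within the SS group 57 did (2 and 4 rats), and within the YSR group 30 (3 and 2 rats). In cohorts XII and XIII the mean score of the comparison genes was 0.00016 and 0.013 in SR rats. It was 0.0049 and -0.0031 in SS rats, and -0.024 and -0.0026 in YSR rats. The share of all genes tested is not given for the counts of this paragraph.

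Other properties of a library were set beside the score. The slope of log2 CPM deviations on log2 exon length over all genes tested, a measure of how much a library favours genes with long exons, was lowest in SR XII-R05 (-0.042) and highest in CT XIII-R12 (0.030). Of the 6 libraries with the lowest scores, 3 were among the 6 lowest slopes, and of the 6 highest, 4 were among the 6 highest slopes. The mitochondrial share of counts lay between 6.40 and 9.69% and was highest in SR XII-L05, and 3 of the 6 lowest scores were among the 6 highest shares. In SR XII-R05, the library with the lowest score, this share was 7.06%. The mean share was 8.23 ± 0.76% (SD, n = 11) in cohort XII and 7.57 ± 0.63% (n = 19) in cohort XIII. The part of RNA quality in the score was not tested.

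**Figure D2:**
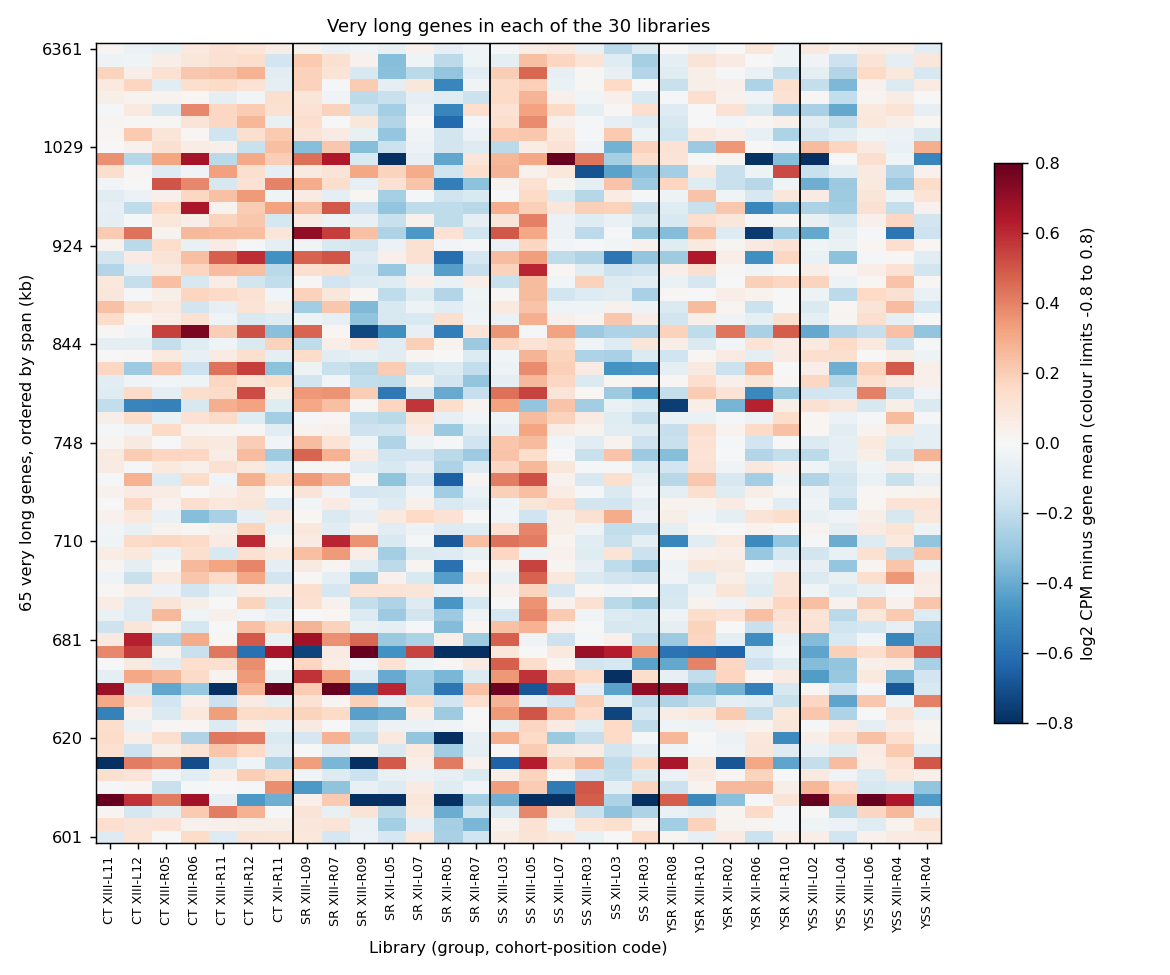
Deviation of log2 CPM from the gene mean (colour, limits -0.8 to 0.8) for the 65 very long genes (rows, longest span at the top) in the 30 libraries (columns, by group). Columns such as SR XII-R05 (56 members below their mean) and SS XIII-L05 (8 below) are of 1 colour over most rows.

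SR rats were compared with CT rats to see how the class stood in the animals that went on taking METH under punishment. Of the 65 very long genes, 57 had a lower estimate in SR rats (49% of all genes tested did), and the median log2 fold change was -0.11, against -0.0030 for the comparison genes and 0.0028 for all genes tested. At an unadjusted p under 0.05, 12 of the 65 (18.5%) were lower and 0 were higher. In the background, 10.5% of the genes tested passed this threshold, 5.66% lower and 4.82% higher. Of the 64 members with comparison genes, 55 were below the median of their own comparison genes. After Benjamini-Hochberg adjustment no member passed in edgeR's quasi-likelihood test (smallest adjusted p = 0.324), and neither did any other gene (0% of all genes tested).

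Single estimates ran from -0.79 to 0.34. The median was alike over the classes of span. It was -0.12 in the 20 members of 600 to 700 kb, -0.094 in the 26 of 700 to 900 kb and -0.13 in the 19 over 900 kb. The 32 members above the median level had a median of -0.11, and the 33 others had -0.15. The median SE of a log2 fold change was 0.083, close to the median shift itself.

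The lowest p-values in SR vs. CT belonged to the 612-kb member of chromosome 1 (17446417 to 18058055), with a log2 fold change of -0.16 (SE 0.051, adjusted p = 0.324 by edgeR's quasi-likelihood test), and to ENSRNOG00000021938, a 798-kb gene of chromosome 4 (110699557 to 111497643) with 4 exon blocks and a stretch of 792 kb without exons. The latter had from 35.8 to 42.8 CPM in CT (median 37.6), from 30.6 to 38.9 in SR (median 34.3) and from 35.2 to 45.8 in SS rats (median 38.7). YSR rats had 38.3, 38.4, 39.3, 40.9 and 42.0 CPM, and YSS rats 32.7, 39.3, 40.1, 41.9 and 42.8 CPM. In SR rats 5 of 7 values were below every CT value, 5 below every SS value and 6 below every YSR value. Its log2 fold change was -0.18 in SR vs. CT (SE 0.063, adjusted p = 0.371), -0.19 in SR vs. SS (SE 0.065, adjusted p = 0.507) and -0.20 in SR vs. YSR (SE 0.068, adjusted p = 0.362; edgeR's quasi-likelihood test). These comparisons share the SR libraries. Between the cohorts this gene differed by -0.0074 (SE 0.048). In SR vs. SS its log2 fold change was -0.17 (SE 0.093) in cohort XII and -0.19 (SE 0.098) in cohort XIII. In SR vs. YSR it was -0.20 (SE 0.082) and -0.19 (SE 0.12), and in SR vs. CT it was -0.14 (SE 0.091) in cohort XIII. The lowest adjusted p of these estimates was 0.489 by edgeR's quasi-likelihood test. They come from the same libraries by which the gene was picked out, and so are not a replication.

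Of the 8 positive estimates in SR vs. CT, those with the lowest p-values were 0.34 (SE 0.18) for the 762-kb member of chromosome 20 (25064702 to 25826658) and 0.098 (SE 0.071) for the 719-kb member of chromosome 8 (102304095 to 103022619), with adjusted p = 0.517 and 0.620 by edgeR's quasi-likelihood test. The first is a gene of 1.52 CPM on average.

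**Figure D3:**
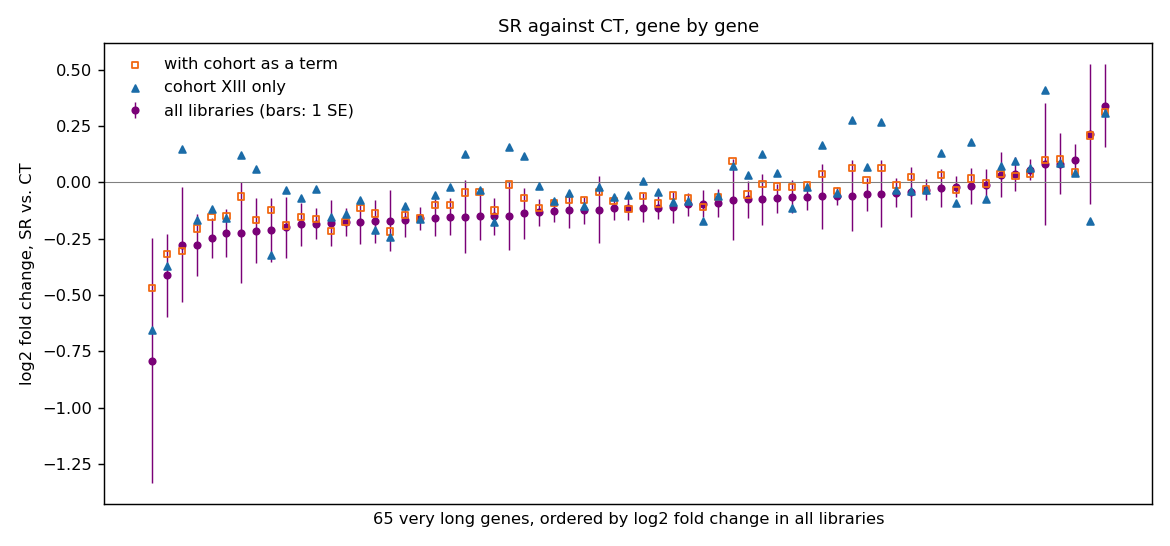
Log2 fold change in SR vs. CT (y axis) of each of the 65 very long genes (x axis, ordered by the estimate in all libraries); circles with bars show the fit of all libraries ± 1 SE, open squares the fit with cohort as a term, and triangles cohort XIII alone. Of the 65 estimates, 57, 49 and 41 are negative in these 3 fits.

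The difference between SR and CT rats was smaller once cohorts were taken into account. With the cohort as a term in the model the median was -0.063, against 0.00054 over all genes tested. An unadjusted p under 0.05 was reached by 5 members (6.83% of all genes tested did), 4 of them among the 12 above. Of the 65 estimates, 49 were negative. Within cohort XIII (3 SR and 6 CT rats) the median was -0.034, against 0.0012 over all genes tested, and 41 of the 65 were negative. There 3 members passed, 2 lower and 1 higher, against 7.19% of all genes tested. Cohort XII holds a single CT rat and gave no test. Without the SR rats XII-R05 or XII-L05, which had the lowest scores, 5 and 6 members passed, and without the SR rat XIII-R07, which had a high score, 18 did. For counts with a library left out, here and below, the share of all genes tested is not given. Such counts are therefore not set against a background.

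The other groups were set against the same 7 CT libraries, so the comparisons below share their controls with SR vs. CT. In SS vs. CT, 36 of the 65 members were lower by their estimate (47.6% of all genes tested were) and the median was -0.0093, against -0.0028 for the comparison genes. A single member, the 612-kb gene of chromosome 1, was lower at an unadjusted p under 0.05 and 0 were higher (1.54%, against 5.01% of all genes tested, 2.3% lower and 2.71% higher). This gene had a log2 fold change of -0.11 (SE 0.053, adjusted p = 0.994 by edgeR's quasi-likelihood test). The 6361-kb gene followed with -0.077 (SE 0.041, adjusted p = 0.997). The positive estimates with the lowest p-values were those of the 719-kb member of chromosome 8 at 0.12 (SE 0.074) and the 844-kb member of chromosome 17 (36451058 to 37295069) at 0.12 (SE 0.079). None of the members was among the 0.101% of genes with an adjusted p under 0.05. Within cohort XIII the median was 0.023 and 1 member passed at an unadjusted p under 0.05, which was higher (4.28% of all genes tested did). Without the SS rat XIII-L05 the count in SS vs. CT was 7, and with libraries left out in turn the median lay between -0.060 and 0.020.

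In YSR vs. CT, 52 of the 65 were lower by their estimate (49.4% of all genes tested were), with a median of -0.061 against -0.011 for the comparison genes. At an unadjusted p under 0.05, 6 members were lower and 0 higher (9.23%, against 7.56% of all genes tested, 3.67% lower and 3.89% higher). The lowest p-values were those of the 710-kb member of chromosome 8 (7814895 to 8524643) at -0.43 (SE 0.16) and the 934-kb member of chromosome 4 (54474136 to 55407922) at -0.44 (SE 0.18), both with adjusted p = 0.598 by edgeR's quasi-likelihood test. The 719-kb member of chromosome 8 (0.11, SE 0.077) and the 688-kb member of chromosome 2 (3400977 to 4088989; 0.11, SE 0.085) had the lowest p-values of the positive estimates. No member was among the 0.12% of genes with an adjusted p under 0.05. With the cohort as a term, 1 member passed at an unadjusted p under 0.05 (5.61% of all genes tested did) and the median was -0.022. Within cohort XIII (2 YSR rats) 2 passed (5.98% of all genes tested did) and the median was -0.091. Without the YSR rats XII-R06 or XII-R10, 3 members passed.

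In YSS vs. CT, 49 of the 65 were lower by their estimate (50.6% of all genes tested were), with a median of -0.054 against -0.0042. At an unadjusted p under 0.05, 7 members were lower and 1 higher (12.3%, against 5.01% of all genes tested, 2.77% lower and 2.24% higher). The 681-kb member of chromosome 18 (16650806 to 17332210) had -0.45 (SE 0.17) and the 934-kb member of chromosome 4 had -0.46 (SE 0.18), each with adjusted p = 0.980 by edgeR's quasi-likelihood test. Of the positive estimates, that of the 886-kb member of chromosome 12, 0.11 (SE 0.077), had the second lowest p-value. No member was among the 0.0823% of genes with an adjusted p under 0.05. At an unadjusted p under 0.05, 11 members passed with the cohort as a term (10 lower, against 5.18% of all genes tested), and 10 within cohort XIII (9 lower, against 6.07%), where the median was -0.068. The count was 4 or 5 without the CT rats XIII-R06 or XIII-R12 or the YSS rats XIII-L02 or XIII-L04.

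The member that was higher in YSS rats was ENSRNOG00000034190, a 608-kb gene of chromosome 6 (138054662 to 138662511) with 12 other genes inside its span. It had between 3 and 32 counts in every library but the YSS rat XIII-L06, which had 260. YSS rats had 0.628, 1.08, 1.48, 1.74 and 14.02 CPM, CT rats from 0.628 to 1.95 (median 1.246), SR rats from 0.176 to 1.06 (median 0.728), SS rats from 0.358 to 1.31 (median 0.567) and YSR rats 0.599, 0.693, 0.899, 0.978 and 1.31. The log2 fold change was 1.68 in YSS vs. CT (SE 0.50, adjusted p = 0.700), -2.49 in SS vs. YSS (SE 0.56, adjusted p = 0.412) and -2.09 in YSR vs. YSS (SE 0.58, adjusted p = 1; edgeR's quasi-likelihood test). Without XIII-L06 these values were 0.056 (SE 0.36), -0.87 (SE 0.39) and -0.47 (SE 0.40), with adjusted p = 0.990, 0.944 and 1 by the same test. The higher level of YSS rats against CT rats thus rested on a single rat.

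**Figure D4:**
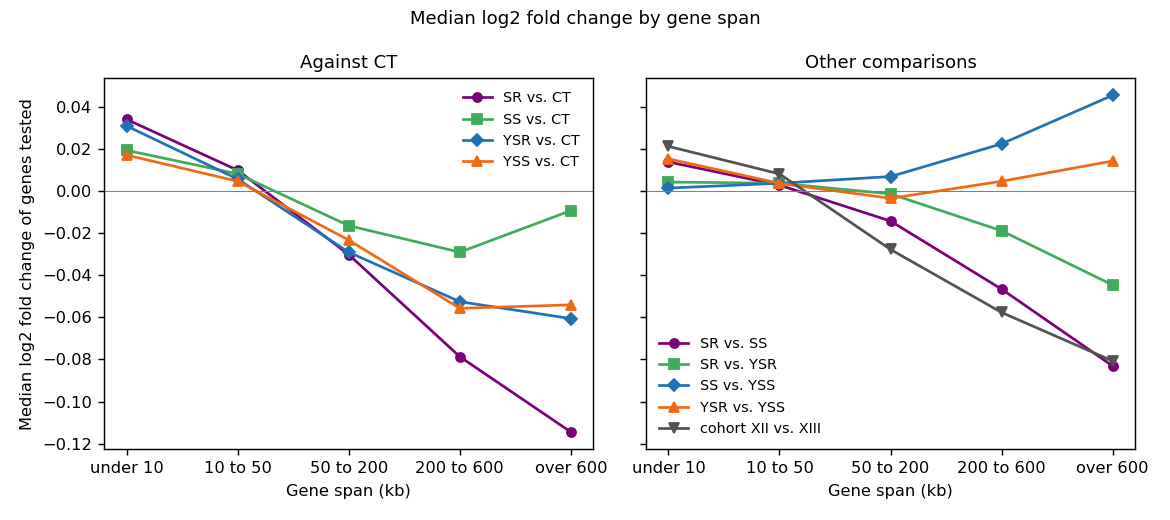
Median log2 fold change (y axis) of the autosomal genes tested in 5 classes of span (x axis, kb), for the comparisons against CT (left) and for the others including the cohorts (right); the classes hold 4885, 6382, 3248, 625 and 65 genes. In SR vs. CT the median runs from 0.034 under 10 kb to -0.11 over 600 kb, and in SS vs. YSS from 0.0014 to 0.045.

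The median estimate depended on gene span in some of the comparisons. In SR vs. CT the median log2 fold change was 0.034 for the 4885 genes up to 10 kb, 0.0098 for 10 to 50 kb, -0.030 for 50 to 200 kb, -0.079 for 200 to 600 kb and -0.11 for the members. The share of genes with a negative estimate ran along the same classes from 39.3% to 87.7%. The class of 200 to 600 kb held 21.0% of genes with an unadjusted p under 0.05, about as many as the members (18.5%). In SS vs. CT the medians went from 0.019 to -0.029 in the class of 200 to 600 kb and were -0.0093 in the members. The members were close to the class of 200 to 600 kb in YSR vs. CT (-0.061 and -0.053) and likewise in YSS vs. CT (-0.054 and -0.056). In YSR vs. YSS the medians of the 5 classes were 0.015, 0.0036, -0.0035, 0.0046 and 0.014, with no order by span.

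SR rats were compared directly with SS rats, the METH rats that reduced their intake. Of the 65 members 52 were lower in SR by their estimate (50.4% of all genes tested were), with a median of -0.083 against 0.0042 for the comparison genes. There were 8 lower and 1 higher at an unadjusted p under 0.05 (13.8%, against 7.46% of all genes tested, 4.02% lower and 3.44% higher). After ENSRNOG00000021938, the lowest p-value was that of the 738-kb member of chromosome 9 (31281316 to 32019205), with a log2 fold change of -0.15 (SE 0.053, adjusted p = 0.509 by edgeR's quasi-likelihood test). The single higher member was the 1012-kb gene of chromosome 9 (68414339 to 69426226) at 0.30 (SE 0.14, adjusted p = 0.666), followed by the 762-kb gene of chromosome 20 at 0.26 (SE 0.19). Within cohort XIII (3 and 4 rats) the median was -0.061, with 4 members lower and 2 higher (6.74% of all genes tested passed). Within cohort XII (4 and 2 rats) it was -0.020, with 2 lower and 3 higher (8.15% of all genes tested passed). Without the SR rat XIII-L09 15 members passed, and without the SS rat XII-L03 14 did.

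SR and SS rats were also compared with the YSR and YSS groups, which were shocked along with SR or SS rats but took no METH. The medians of these comparisons had opposite signs. The groups were compared unpaired, since the labels do not state the pairs. In SR vs. YSR the median was -0.045 (comparison genes 0.015), 42 of the 65 were lower by their estimate (49.6% of all genes tested were), and 5 were lower and 2 higher at an unadjusted p under 0.05 (10.8%, against 8.17% of all genes tested, 4.55% lower and 3.62% higher). The lower ones included the 688-kb member of chromosome 2, at -0.24 (SE 0.085, adjusted p = 0.404 by edgeR's quasi-likelihood test). The higher ones were the 710-kb member of chromosome 8 (0.36, SE 0.16, adjusted p = 0.542) and the 934-kb member of chromosome 4 (0.38, SE 0.18, adjusted p = 0.574), the same members that had the lowest p-values in YSR vs. CT, with which this comparison shares the YSR libraries. No member was among the 0.0253% of genes with an adjusted p under 0.05. The direction was not the same in both cohorts. Within cohort XII the median was -0.086, with 11 members lower and 0 higher (9.25% of all genes tested passed), and within cohort XIII (3 SR and 2 YSR rats) it was 0.028, with 0 lower and 5 higher (4.54%). In the 14 rats with adjacent library codes (3 SR and YSR pairs, whose deviations from the group means correlated by 0.11 to 0.24), 3 members passed with the code pair as a replicate block and 2 without it (5.70 and 5.13% of all genes tested), with a median of -0.054 in both. Without the SR rat XIII-R09 2 members passed, and without the YSR rats XII-R06 or XII-R10 4 and 3 did.

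In SS vs. YSS, 43 of the 65 were higher in SS by their estimate and 22 lower (47.4% of all genes tested were lower), and the median was 0.045 (comparison genes 0.0037). At an unadjusted p under 0.05, 4 were higher and 1, ENSRNOG00000034190, was lower (7.69%, against 4.27% of all genes tested, 1.97% lower and 2.3% higher). The lowest p-value among the higher ones was that of ENSRNOG00000014371, a 1123-kb gene of chromosome 19 (50848736 to 51972103) with 14 exon blocks. YSS rats had 104, 106, 108, 111 and 112 CPM of it, and SS rats from 112 to 133 (median 127). In CT rats it ranged from 103 to 133 (median 123), in SR rats from 92.7 to 123 (median 111), and YSR rats had 96.8, 103, 110, 118 and 121. In SS rats 5 of 6 values were above every YSS value. The log2 fold change was 0.20 in SS vs. YSS (SE 0.069, adjusted p = 0.995 by edgeR's quasi-likelihood test) and, with 30 fits that each left out a library, between 0.18 and 0.23. In SR vs. SS it was -0.17 (adjusted p = 0.553). The 736-kb member of chromosome 2 (262914327 to 263650441) was also higher in SS than in YSS, at 0.31 (SE 0.13), and the 1029-kb member of chromosome 11 (61605937 to 62634803) had the second lowest p-value of the negative estimates, at -0.19 (SE 0.11). Within cohort XIII, 10 members were higher and 1 lower (6.41% of all genes tested passed), and the median was 0.094. Without the SS rat XIII-L03 or the YSS rat XIII-L02, 3 members passed.

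Between the yoked groups, YSR vs. YSS, the median was 0.014 and 27 of the 65 members were lower by their estimate (47.5% of all genes tested were). An unadjusted p under 0.05 was reached by 2 members, both lower in YSR (3.08%, against 3.29% of all genes tested, 1.5% lower and 1.79% higher). They were ENSRNOG00000034190 and the 650-kb member of chromosome 12 (14449010 to 15098786; -0.25, SE 0.12). The positive estimates with the lowest p-values were 0.32 (SE 0.22) in the 858-kb member of chromosome 13 (6679368 to 7537275) and 0.16 (SE 0.13) in the 673-kb member of chromosome 12 (31934343 to 32607370).

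Whether the difference of METH from yoked rats differed between the phenotypes was tested by the interaction (SR - YSR) - (SS - YSS). By the study, SR rats took more METH under punishment than SS rats. SR and YSR rats also received more shocks than SS and YSS rats. The interaction does not separate phenotype from dose and number of shocks. Its median over the members was -0.075, against 0.00999 for the comparison genes, and 48 of the 65 estimates were negative (52% of all genes tested were). At an unadjusted p under 0.05, 5 members were negative and 1 positive (9.23%, against 5.43% of all genes tested, 2.98% negative and 2.45% positive), and none passed after adjustment (smallest adjusted p = 0.836 by edgeR's quasi-likelihood test). The lowest p-value belonged to the 1398-kb member of chromosome 3 (85421426 to 86819375), with -0.23 (SE 0.083, adjusted p = 0.836). Within cohort XIII 1 member passed (3.02% of all genes tested did) and the median was -0.063. In the test over all 5 groups, 5 members had an unadjusted p under 0.05 (7.69%, against 7.32% of all genes tested). The smallest adjusted p, 0.0538 by edgeR's quasi-likelihood test, was that of ENSRNOG00000034190, and without the YSS rat XIII-L06 it was 0.676, so that no member was among the 0.171% of genes with an adjusted p under 0.05.

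The largest number of very long genes past an unadjusted p of 0.05 was found between the cohorts. With the group as a term in the model, 23 members were lower and 1 higher in cohort XII than in cohort XIII at an unadjusted p under 0.05 (36.9%, against 16.4% of all genes tested, 8.15% lower and 8.21% higher). The median was -0.081, against 0.0033 for the comparison genes, and 53 of the 65 estimates were negative (49.2% of all genes tested were). By span, the median ran from 0.021 up to 10 kb through -0.058 for 200 to 600 kb. The lowest p-values were those of ENSRNOG00000006617, the 1697-kb gene of chromosome 4, at -0.22 (SE 0.055, adjusted p = 0.0541), and of the 784-kb member of chromosome 3 (157544583 to 158328881), at -0.39 (SE 0.096, adjusted p = 0.0554; edgeR's quasi-likelihood test). None was among the 0.481% of genes with an adjusted p under 0.05 in this test. DESeq2 gave 4 members with an adjusted p under 0.05, all lower in cohort XII. The share of all genes tested that passed in that fit is not given, so this count is not set against a background.

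ENSRNOG00000006617 had from 60.4 to 77.8 CPM in CT (median 72.5), from 50.7 to 72.7 in SR (median 58.9) and from 54.5 to 88.2 in SS rats (median 63.1). YSR rats had 56.1, 60.0, 61.7, 63.8 and 66.2 CPM, and YSS rats 54.4, 58.6, 61.0, 67.9 and 71.6. The lowest CT value was that of the only CT rat of cohort XII, and the SR rats of cohort XII held 4 of the 5 lowest values of their group. In SR vs. CT its log2 fold change was -0.25 (SE 0.088, adjusted p = 0.381 by edgeR's quasi-likelihood test), with 5 of 7 SR values below every CT value. With the cohort as a term it was -0.15, and within cohort XIII -0.12.

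**Figure D5:**
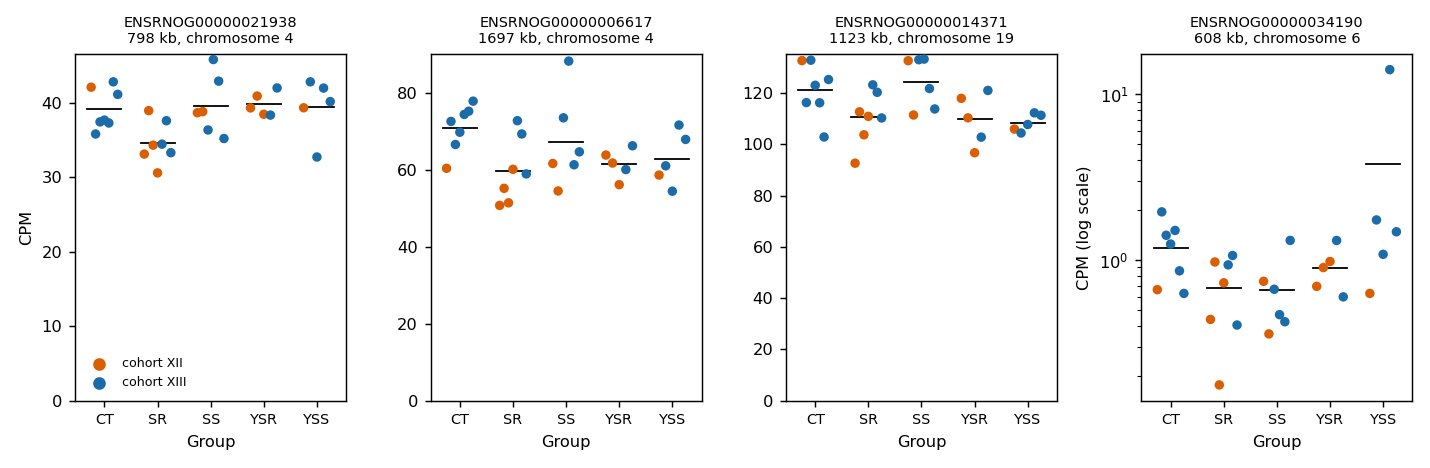
CPM (y axis, from 0, or on a log scale for the rightmost gene) in each library by group (x axis) of 4 very long genes; points are libraries coloured by cohort, and lines are group means. ENSRNOG00000021938 has 5 of 7 SR values below every CT value, and ENSRNOG00000034190 stands at 14.02 CPM in a single YSS rat.

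Some members varied widely within groups. The 652-kb gene of chromosome 1 (18491384 to 19143269; 65 exon blocks) and the 676-kb gene of chromosome 13 (106751625 to 107427329; 73 exon blocks) had SDs of 0.55 and 0.52 log2 units within groups, at mean levels of 14.4 and 7.36 CPM and with 122 to 471 and 44 to 246 counts per library. In YSR vs. CT the second of these had an estimate of -0.62 (adjusted p = 0.635 by edgeR's quasi-likelihood test). At the other end, the 924-kb member of chromosome 16 (4871650 to 5795825) and the 624-kb member of chromosome 7 (113681793 to 114305896) had SDs of 0.090 at 143 and 81.1 CPM.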

How the data were processed

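The authors trimmed paired reads from oligo(dT)-selected RNA and deposited raw counts per gene, 1 table per rat. The submitters' processing notes name bcl2fastq 2.17, Trimmomatic 0.36, STAR 2.5.2b and featureCounts of Subread 1.5.2, and the strand setting, genome build and annotation release are not given in the sources used here. Totals lay between 14584340 and 19997820 counts per library. Libraries were grouped by their titles, 1 per rat, and pairs within a group differed by more than sampling noise (chi-square per degree of freedom from 5.08).

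Span is the largest exon end minus the smallest exon start. The members and lists were chosen with earlier results of these data known. edgeR 4.0.16 (R 4.3.3) was fitted to all 30 libraries with group as the only factor (TMM, default filter, quasi-likelihood test), and p-values were Benjamini-Hochberg adjusted over 15797 genes; the cohort was tested with group in the model. The SE of a log2 fold change was computed from the F statistic. Log2 CPM used a prior count of 2. A count at p under 0.05 is unadjusted unless stated. The code was tested on simulated data.

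Members named were those with an adjusted p under 0.05 (none), the 2 with the smallest p per direction in each of the 8 comparisons, the 5 longest and 5 most expressed, and the 3 nearest to the span limit on either side. Members of the cohort, interaction and 5-group tests, the 886-kb gene for its level per kb, those with overlapping exons and the most and least variable members were named after their values were seen, and so were the 4 given by identifier. Lists of functions and cell type markers could not be applied, since no identifier was paired with a symbol. Alternatives were median-ratio size factors, DESeq2 1.42.0, 2 other count filters, the cohort as a term, cohort XIII by itself, Tukey's test on log2 CPM, models restricted to the groups in a contrast, removal of each library's trend with exon length (lowess), other spans, other comparison genes and each library left out. Fits of cohort XII alone, fits of METH and yoked rats with adjacent library codes (with and without the code pair as a block), the score over nearest comparison genes, the leave-one-out medians and leaving out the 7 members with 1 dominant stretch without exons were added after the data were seen.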

Additional observations from a re-analysis of the deposited data

Results flagged for a closer look

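In the YSS rats, ENSRNOG00000034190 stood at 14.02 CPM (260 counts) in the rat XIII-L06, far from the other 4 YSS rats, which had from 0.628 to 1.74 CPM. The gap to the nearest rat was 0.917 of the range of the group. This was the only value so far from its group among 30 groups of values examined (the score of the very long genes, its difference from that of the comparison genes, and the 4 members given by identifier), where chance gives about 1.5. The 4 members given by identifier were named after their values were seen, so the number given for chance does not hold for them. The rat XIII-L06 had a score of 0.11 over all members.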

How the results depend on the processing

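Replicate numbers only follow the order of deposit, and the labels do not state which yoked rat belonged to which METH rat. In 7 cases a METH rat and a yoked rat of the matching group have adjacent library codes (3 SR and 4 SS). The deviations of such rats from their group means, over all genes tested, correlated by 0.11 to 0.24 in the SR pairs and by -0.14 to 0.046 in the SS pairs, and rats of a pair also share a cohort. Yoked rats need not correlate, and only group means were subtracted, so these values cannot decide which rats were yoked. With these rats and the code pair as a replicate block, 3 members had an unadjusted p under 0.05 for SR vs. YSR (5.70% of all genes tested), 6 for SS vs. YSS (3.58%) and 2 in the interaction (4.68%), against 2, 5 and 2 for the same rats without the block (5.13, 3.14 and 4.43%); both fits were chosen after the data were seen. The medians with the block were -0.054, 0.055 and -0.12.

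The medians of the very long genes moved by less than the SD between rats under every alternative run. They changed sign in cohort XIII in SS vs. CT, SR vs. YSR and YSR vs. YSS, and in SS vs. CT also with the cohort as a term or the exon length trend removed. Of the 5 longest and 5 most abundant members, 4 changed the sign of their SR vs. CT estimate, none called in either fit: in cohort XIII the 748-kb (0.041), 1678-kb (0.034) and 1934-kb (0.069) genes, with the cohort as a term the 1934-kb gene (0.011), and with the length trend removed the 6361-kb gene (0.027), which turned positive in SS vs. CT as well.

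Counts of members with an unadjusted p under 0.05 moved more. The share of all genes tested in the same fit is given in brackets. Count and share did not always move in the same direction, and the cause was not tested. Tukey's test gave 1 in SR vs. CT (1.91%) and 0 in each of the 7 other comparisons of groups (0.392 to 1.85%). Its p-values are already adjusted over the pairs of the 5 groups, though not over genes. These counts are therefore at a stricter threshold than the others of this paragraph. In cohort XIII the count was 3 for SR vs. CT (7.19%), 11 for SS vs. YSS (6.41%), 2 for YSR vs. CT (5.98%), 1 for YSR vs. YSS (3.99%), 1 in the interaction (3.02%) and 8 over the 5 groups (6.60%). In cohort XII it was 11 for SR vs. YSR (9.25%) and 5 for SR vs. SS (8.15%). With the cohort as a term it was 5 for SR vs. CT (6.83%), 1 for YSR vs. CT (5.61%), 0 for SS vs. CT (4.64%) and 1 for YSR vs. YSS (3.75%). With the exon length trend removed it was 8 for SR vs. CT (9.81%), 3 for YSR vs. CT (6.76%) and 0 for SS vs. CT (4.56%). In that fit it was 1 in YSR vs. YSS (3.44%), 8 over the 5 groups (7.39%) and 20 between the cohorts (15.8%). With 10 counts in every library it was 1 in YSR vs. YSS (3.02%) and 3 in the interaction (5.29%), and with only the groups compared 15 in YSS vs. CT (6.91%) and 3 in the interaction (4.92%). Over the 5 groups it was 10 with DESeq2 (8.05%) and 8 with all genes of at least 1 count (6.53%). The 107 genes over 500 kb gave 23 members for SR vs. CT, 15 for SR vs. SS, 12 for SR vs. YSR and 2 for SS vs. CT. The 27 genes over 800 kb gave 5 each for SR vs. CT and YSS vs. CT, 4 for SR vs. SS, 2 each for SR vs. YSR and SS vs. YSS, 0 each for SS vs. CT and YSR vs. YSS, 1 in the interaction, 2 over the 5 groups and 9 between the cohorts. Both span limits use the same fit, so that the share of all genes is that of the report.

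With each library left out in turn, the counts ranged from 5 to 18 for SR vs. CT, 7 to 15 for SR vs. SS, 0 to 7 for SS vs. CT (7 without the SS rat XIII-L05), 4 to 12 for YSS vs. CT, 3 to 7 for YSR vs. CT, 2 to 9 for SR vs. YSR, 3 to 7 for SS vs. YSS, 0 to 3 in YSR vs. YSS (0 without the YSS rat XIII-L06), 2 to 10 in the interaction (2 without the SS rat XIII-L05, 10 without the YSR rat XIII-R08), 3 to 13 over the 5 groups (3 without the CT rat XIII-L12, 13 without the SR rat XIII-L09) and 17 to 29 between the cohorts. The share of all genes tested is not given for these fits, so the ranges cannot be read as particular to the very long genes. The median ran from -0.15 to -0.086 in SR vs. CT, but from -0.060 to 0.020 in SS vs. CT and from -0.016 to 0.023 in YSR vs. YSS, where its sign turned.

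Adjusted p-values under 0.05 in edgeR's quasi-likelihood test appeared for ENSRNOG00000034190 over the 5 groups with all genes of at least 1 count (0.0234), and between the cohorts for 2 members with 10 counts in every library (0.0439 and 0.0472). Leaving out a library gave up to 4 such members between the cohorts (in 7 of the 30 fits) and 1 over the 5 groups (in 5). Over the 5 groups this member was ENSRNOG00000034190 each time. Without the YSS rat XIII-L06 its adjusted p over the 5 groups was 0.676 by the same test. DESeq2 gave 4 and 1, the latter again ENSRNOG00000034190. The share of all genes tested with an adjusted p under 0.05 is not given for the fits of this paragraph. These counts are therefore not set against a background. With a median SE of 0.083 in SR vs. CT, differences of about this size could not be resolved gene by gene.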
